A study of Homo sapiens with 6 samples.

Results

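PPARA, the nuclear receptor that switches on fatty acid burning, was described together with 8 genes that work with it: the related receptors PPARD and PPARG, their shared partner RXRA, and the fatty acid oxidation enzymes CPT1A, CPT2, ACADM, ACADVL and HADHA. PPARA was picked by its low level in cells given venetoclax and CSA together, so its values in comparisons with that group are a description and carry no test. The other 8 genes were picked by their function, with earlier results of these data known. These are 9 of the 20263 genes in the count table. All 9 had a count in at least 1 library, and 8 passed the filter on low counts and entered the tests. PPARG did not.

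The libraries are bulk RNA-seq of MV4-11, a human acute myeloid leukemia cell line with an internal tandem duplication in FLT3 (FLT3-ITD), labelled WT for genotype. Each culture received drug for 24 h: venetoclax at 100 nM, an inhibitor of the survival protein BCL2, cyclosporine A (CSA) at 2.5 µM, a calcineurin inhibitor, or both, at doses that the labels do not state for the mixture. Each of the 3 groups held 2 libraries, of 1 cell line. Every group had at least 1 drug, and untreated cells were not analysed here, so each value is relative to another treatment. The design asks how expression with the mixture differs from that with either drug alone. Since the doses in the mixture are not stated, a change of dose could not be told apart from the added drug.

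The peroxisome proliferator-activated receptors bind DNA as pairs with a retinoid X receptor such as RXRA, at repeats of the hexamer AGGTCA with a single base between the copies, the DR1 element. Fatty acids and their derivatives are ligands. PPARA is best known from liver, heart and muscle during fasting, PPARD is made in most tissues, and PPARG directs fat cell formation. Among the genes that PPARA can induce are those for beta-oxidation, in which CPT1A loads long-chain fatty acids onto carnitine at the outer mitochondrial membrane, CPT2 takes the carnitine off inside, ACADVL and ACADM start the shortening of very-long-chain and medium-chain acyl-CoA, and HADHA carries later steps of the cycle for long chains.

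RefSeq (GRCh38.p14) gave promoter windows, from 250 bases before to 50 bases after an annotated start, for all 9 genes, 17 windows in all. 3 of them are printed 5′ to 3′ on the strand of the gene: PPARA, whose transcript was low with both drugs, CPT1A, whose counts were highest there, and PPARG, whose windows were the ones to hold the receptor hexamer. Capitals mark AGGTCA, searched on both strands. The PPARA window lies at chr22:46150276-46150575 on the plus strand, the CPT1A window at chr11:68844228-68844527 on the minus strand, and the PPARG window at chr3:12287118-12287417 on the plus strand.
PPARA: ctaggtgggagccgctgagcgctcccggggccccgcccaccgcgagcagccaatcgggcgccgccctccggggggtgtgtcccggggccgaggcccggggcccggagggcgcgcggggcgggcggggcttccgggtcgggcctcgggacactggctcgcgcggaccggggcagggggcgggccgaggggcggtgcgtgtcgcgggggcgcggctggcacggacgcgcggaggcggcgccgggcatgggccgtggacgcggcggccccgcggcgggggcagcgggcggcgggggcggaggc
CPT1A: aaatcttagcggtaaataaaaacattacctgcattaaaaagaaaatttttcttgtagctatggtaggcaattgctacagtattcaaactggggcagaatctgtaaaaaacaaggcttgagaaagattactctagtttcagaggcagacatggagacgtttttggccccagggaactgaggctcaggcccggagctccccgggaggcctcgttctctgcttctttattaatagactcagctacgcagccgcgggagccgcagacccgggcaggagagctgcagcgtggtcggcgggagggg
PPARG: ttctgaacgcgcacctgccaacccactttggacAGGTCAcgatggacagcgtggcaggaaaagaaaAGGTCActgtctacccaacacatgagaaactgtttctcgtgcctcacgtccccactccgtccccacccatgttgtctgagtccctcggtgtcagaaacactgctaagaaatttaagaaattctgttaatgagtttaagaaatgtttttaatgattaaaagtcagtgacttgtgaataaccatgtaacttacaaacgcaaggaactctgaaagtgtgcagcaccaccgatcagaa
The full DR1 element AGGTCANAGGTCA was in 0 of the 17 windows and in 8 of the 35116 promoter windows of the same length in RefSeq, 0.0228%. AGGTCA by itself was in 3 of the 17, all of PPARG, against 4857 of 35116, 13.8%. The PPARG windows that start at chr3:12288810 and chr3:12288820 overlap and hold the same AGGTCA. Windows of the same gene are thus not independent promoters. In the window printed AGGTCA begins at positions −217 and −184 from the annotated start. The windows also differ in base composition. G and C make up 85.7% of the PPARA window and 45.0% of the PPARG window, with CPT1A between them. These matches describe the letters in these windows only.

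Total counts per library ranged from 26567900 to 30738957. Venetoclax replicate 2 stood apart: 41.5% of its counts came from mitochondrially encoded genes, against 7.41% to 15.2% in the other 5 libraries. Values without it are printed beside most comparisons with venetoclax. The same holds for most gene lists where leaving it out turned a direction or moved a median by a large part. Of the 11 markers of the labelled myeloid cell 10 passed the filter on low counts. CD14 was near 0, at 0 to 0.407 CPM (depth-scaled counts). Summed levels of the 11 were 1986 to 2219 CPM per library, with FLT3 highest. For liver cells and fat cells, where PPARA and PPARG are classically studied, markers were near 0: ALB, APOB and TTR had no count, ADIPOQ had none, and the 3 fat cell markers summed to at most 0.291 CPM. Of the others, CD3D, CD3E, CD2, HBB, EPCAM and CDH1 were at 0, the epithelial, erythroid and T cell markers summed to at most 0.12, 0.169 and 0.0678 CPM, and the 4 B cell markers to 1.78 to 3.49 CPM. In bulk RNA, fewer cells that make a transcript and less of it per cell cannot be told apart. The labels do not say whether the 2 replicates of a group were separate cultures. P-values here therefore measure only the spread between these samples, and that spread may be technical.

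PPARA was at 21.3 and 14.8 CPM with venetoclax, 16.4 and 16.6 CPM with CSA, and 2.52 and 1.53 CPM with both drugs. All values in CPM are scaled by the trimmed mean of M-values (TMM). The 2 libraries of the combination lay far below the 4 single-drug libraries, which overlapped one another. The gene (ENSG00000186951) spans chromosome 22, 46150521 to 46243756 on the plus strand (GRCh38, GENCODE 29). Group means were 18.1 ± 4.61 CPM with venetoclax, 16.5 ± 0.165 with CSA and 2.02 ± 0.703 with both (SD, n = 2). The fitted log2 fold change was −3.15 (SE 0.34) against venetoclax, 8.88-fold lower, and −3.02 (SE 0.33) against CSA, 8.11-fold lower. These values are a description, since the low level chose the gene.

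**Figure D1:**
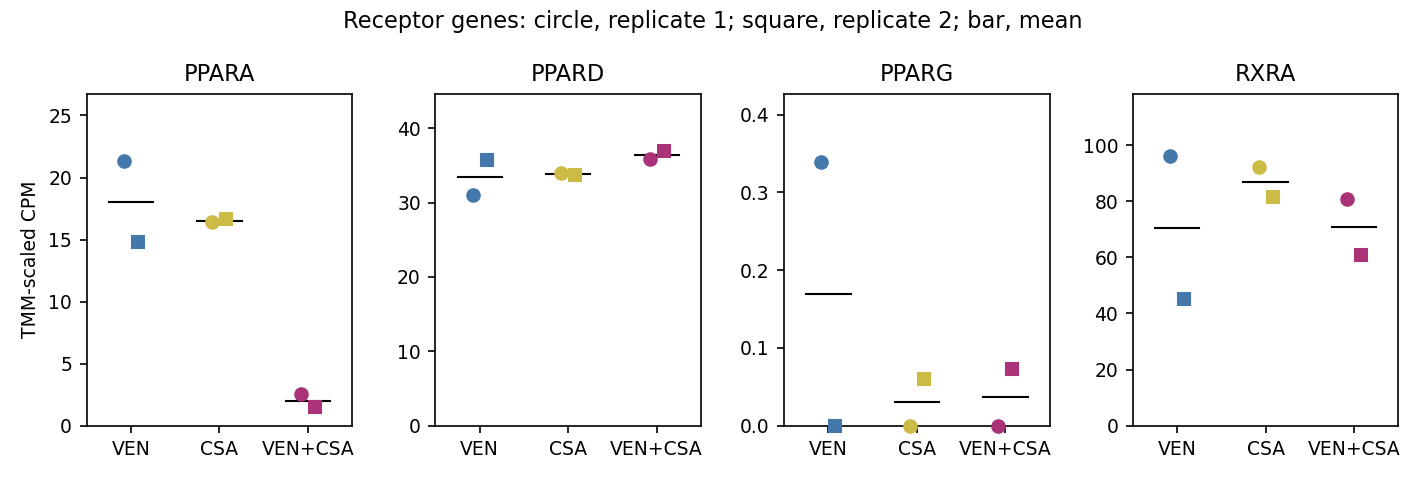
TMM-scaled CPM of PPARA, PPARD, PPARG and RXRA in each of the 6 libraries, grouped by treatment, with a circle for replicate 1, a square for replicate 2 and a bar for their mean. PPARA sits at 1.53 and 2.52 CPM with both drugs and at 14.8 to 21.3 CPM with either drug, while the PPARD points of the 3 groups lie between 31.1 and 36.9 CPM.

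The low PPARA values rested on few reads. The combination libraries held 84 and 42 PPARA counts, against 279 to 629 counts in the single-drug libraries. Exact Poisson 95% intervals for the former were 67.0 to 104 and 30.3 to 56.8. They cover counting error only and take each count as a single read pair, which may not always hold for low counts. Across the alternatives computed the log2 fold change ran from −3.56 to −2.83 against venetoclax and from −3.43 to −2.71 against CSA. Without venetoclax replicate 2 it was −3.38 (SE 0.29) and −3.02 (SE 0.26). Of 12690 genes tested, 12 had a lower log2 fold change than PPARA against venetoclax and 9 against CSA. Among the 11470 genes with a mean of at least 1 CPM, 5 and 2 did. Both comparisons share the combination libraries.

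The single drugs could be compared for PPARA, because that contrast had no part in its choice. With venetoclax against CSA the log2 fold change was 0.13 (SE 0.30, 95% interval −0.61 to 0.88) with an edgeR adjusted p of 0.843. The interval is wide on both sides of 0, so the data do not show that the 2 drugs left the same PPARA level. Without venetoclax replicate 2 the log2 fold change was 0.36.

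PPARD (ENSG00000112033, chromosome 6, 35342558 to 35428191, plus strand), the widely made relative of PPARA, was at 31.1 and 35.7 CPM with venetoclax, 34.0 and 33.7 under CSA, and 35.9 and 36.9 under both drugs. The whole range was narrow, with the combination libraries at its upper end. Its log2 fold change was 0.13 (SE 0.16, 95% interval −0.27 to 0.52) against venetoclax and 0.10 (SE 0.16, interval −0.29 to 0.50) against CSA, with edgeR adjusted p of 0.774 and 1.00. The value against venetoclax was 0.23 without venetoclax replicate 2.

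PPARG (ENSG00000132170, chromosome 3, 12287368 to 12434356, plus strand), the fat cell receptor, was close to undetected. It had 10 and 0 counts with venetoclax, 0 and 2 under CSA, and 0 and 2 under both drugs. A count of 0 allows up to 3 counts, which is 0.0900 to 0.159 CPM in these libraries. The 10 counts of venetoclax replicate 1, 0.339 CPM, were the one value above that limit, and no fold change is given.

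RXRA (ENSG00000186350, chromosome 9, 134317098 to 134440585, plus strand), the DNA-binding partner, was at 96.1 and 45.1 CPM with venetoclax, 92.3 and 81.4 under CSA, and 80.8 and 60.9 under both drugs. Replicate 2 was the lower one in each group, and most so in venetoclax, where the library rich in mitochondrial transcripts had the lowest value of all 6. The log2 fold change of the combination was 0.00 (SE 0.37, 95% interval −0.91 to 0.92) against venetoclax, with an edgeR adjusted p of 0.998, and −0.29 (SE 0.37, interval −1.21 to 0.62) against CSA. Without venetoclax replicate 2 the first value was −0.44 (SE 0.20), with an edgeR adjusted p of 0.375. Venetoclax against CSA gave −0.30 (SE 0.37), adjusted p 0.720 in edgeR. This value was 0.14 without venetoclax replicate 2 and −0.95 without venetoclax replicate 1, so its sign depends on the library left out. The interval against venetoclax reaches nearly 1 log2 unit on either side of 0, and differences of RXRA within it could not be detected at this spread.

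CPT1A, the entry step of long-chain fatty acids into mitochondria, had its highest counts where PPARA was lowest. CPT1A (ENSG00000110090, chromosome 11, 68754620 to 68844410, minus strand) was at 170.2 and 151 CPM with venetoclax, 222 and 222 under CSA, and 328.5 and 309.7 under both drugs. The 3 groups did not overlap, and their means were 160.5 ± 13.7, 221.9 ± 0.427 and 319.1 ± 13.3 CPM (SD, n = 2). CPT1A was 1.99-fold higher in the combination than with venetoclax, a log2 fold change of 0.99 (SE 0.15, 95% interval 0.63 to 1.36). Its unadjusted p in edgeR was 0.000591 and its adjusted p over all genes 0.139, so it did not pass the threshold of 0.05. Without venetoclax replicate 2 the log2 fold change was 0.91 (SE 0.10) with an edgeR adjusted p of 0.0566. Without venetoclax replicate 1 it was 1.08, with an edgeR adjusted p of 0.0132. DESeq2 on all 6 libraries gave an adjusted p of 1.59e-05.

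Against CSA the combination was 1.44-fold higher in CPT1A, a log2 fold change of 0.52 (SE 0.15, 95% interval 0.16 to 0.89) with an unadjusted p of 0.0123 and an adjusted p of 1.00 in edgeR. Venetoclax was 1.38-fold below CSA, at −0.47 (SE 0.15, interval −0.83 to −0.11), with an unadjusted p of 0.0197 and an adjusted p of 0.633 in edgeR. Without venetoclax replicate 1 it was −0.56 with an edgeR adjusted p of 0.0216, and without venetoclax replicate 2 it was −0.39 with 0.694. The interval of each of the 3 CPT1A differences thus excludes 0 before adjustment, and with all 6 libraries no difference passed in edgeR after adjustment over 12690 genes.

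**Figure D2:**
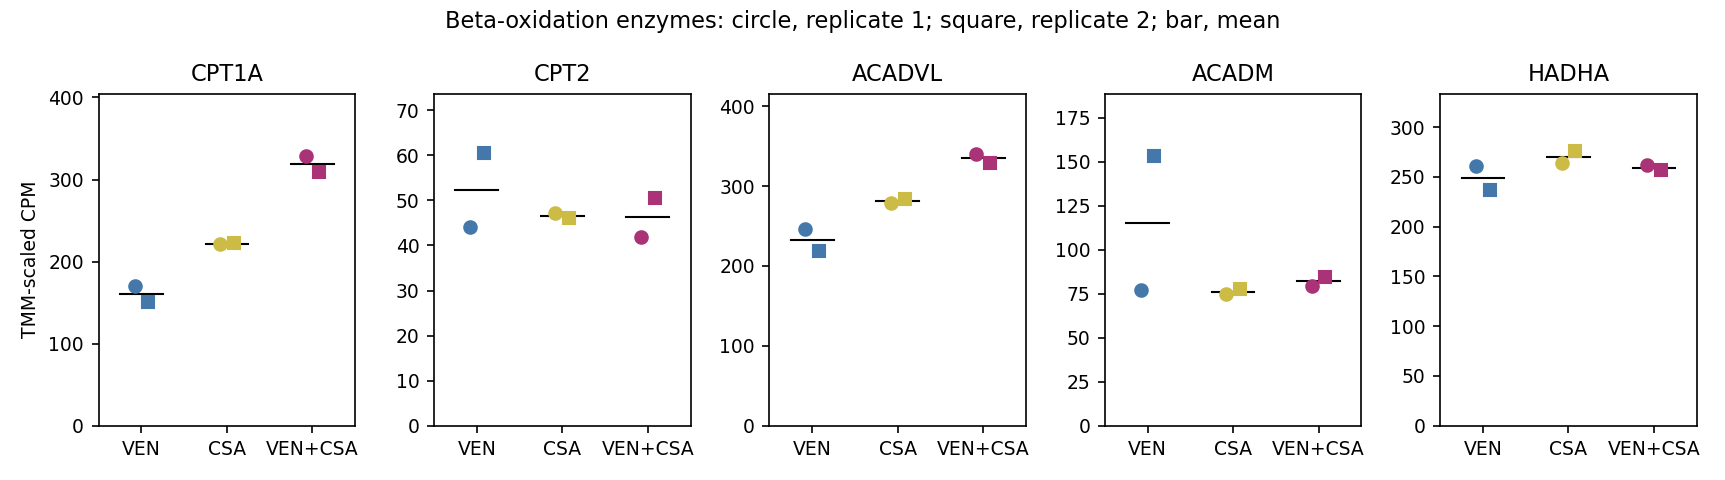
TMM-scaled CPM of CPT1A, CPT2, ACADVL, ACADM and HADHA in the 6 libraries, grouped by treatment, with a circle for replicate 1, a square for replicate 2 and a bar for their mean. CPT1A and ACADVL are ordered venetoclax, CSA, combination from low to high with no overlap, and ACADM stands out in venetoclax replicate 2 at 153 CPM.

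CPT2 (ENSG00000157184, chromosome 1, 53196429 to 53214197, plus strand), which releases the fatty acid from carnitine inside the mitochondrion, did not share the CPT1A pattern. It was at 44.0 and 60.5 CPM with venetoclax, 47.3 and 46.0 under CSA, and 42.0 and 50.6 under both drugs. All 3 groups overlapped, and the largest spread was within venetoclax. Its log2 fold change was −0.18 (SE 0.21, 95% interval −0.70 to 0.35) against venetoclax and −0.01 (SE 0.21, interval −0.54 to 0.51) against CSA. The edgeR adjusted p against venetoclax was 0.761. Without venetoclax replicate 2 the log2 fold change against venetoclax turned to 0.08.

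ACADVL (ENSG00000072778, chromosome 17, 7217125 to 7225273, plus strand), the very-long-chain acyl-CoA dehydrogenase, had its groups in the same order as CPT1A, closer together. It was at 246 and 219 CPM with venetoclax, 278 and 284 under CSA, and 340.5 and 329 under both drugs, with no overlap. Means were 232.2 ± 19.1, 281.1 ± 3.96 and 334.6 ± 8.34 CPM (SD, n = 2). The combination was 1.44-fold above venetoclax, a log2 fold change of 0.53 (SE 0.14, 95% interval 0.17 to 0.88) with an unadjusted p of 0.0112 and an adjusted p of 0.348 in edgeR. Without venetoclax replicate 2 it was 0.45 with an edgeR adjusted p of 0.161, and without venetoclax replicate 1 it was 0.61 with an edgeR adjusted p of 0.0210. Against CSA it was 1.19-fold higher, 0.25 (SE 0.14, interval −0.10 to 0.61). Venetoclax against CSA gave −0.28 (SE 0.14), adjusted p 0.633 in edgeR. This value was −0.20 without venetoclax replicate 2 and −0.36 without venetoclax replicate 1.

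ACADM (ENSG00000117054, chromosome 1, 75724347 to 75787575, plus strand), the medium-chain enzyme, was at 77.2 and 153 CPM with venetoclax, 75.0 and 77.5 under CSA, and 79.6 and 84.3 under both drugs. Apart from venetoclax replicate 2, the 5 libraries lay within 75.0 to 84.3 CPM. The log2 fold change of the combination against venetoclax was −0.49 (SE 0.32, 95% interval −1.29 to 0.31) with an edgeR adjusted p of 0.597. It was 0.09 without venetoclax replicate 2 and −0.90, with an edgeR adjusted p of 0.0147, without venetoclax replicate 1, so 1 library decides its sign. Against CSA it was 0.10 (SE 0.32). Venetoclax against CSA gave 0.60 (SE 0.32) with all libraries, 0.01 without venetoclax replicate 2 and 1.01 without venetoclax replicate 1, where the edgeR adjusted p was 0.0165. The share of mitochondrially encoded counts moved with this value, and its part in the result was not tested.

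HADHA (ENSG00000084754, chromosome 2, 26190635 to 26244726, minus strand), the alpha subunit of the trifunctional protein, had the narrowest relative range among the enzymes. It was at 261 and 236 CPM with venetoclax, 264 and 276 under CSA, and 262 and 257 under both drugs. Venetoclax lay below CSA in both libraries, and the combination lay between the CSA values and the lower venetoclax value. The log2 fold change was 0.06 (SE 0.14, 95% interval −0.29 to 0.41) against venetoclax and −0.06 (interval −0.41 to 0.29) against CSA. The fitted values of CPT1A lie outside both intervals. Without venetoclax replicate 2 the HADHA value against venetoclax was −0.0044.

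Per kilobase of exon, HADHA and ACADVL had the highest values, at means of 59.1 and 58.1 CPM per kb over the 6 libraries. The length used was that of all annotated exons of a gene merged, such as 10452 bases for CPT2 and 4865 for ACADVL. Which transcripts these cells make was not measured, and theirs may be shorter, so the order between genes is approximate. CPT1A followed at 35.6 and ACADM at 19.1 CPM per kb. PPARD at 7.75, RXRA at 6.87 and CPT2 at 4.63 formed the next group, followed by PPARA at 0.923 and PPARG at 0.0173 CPM per kb. Some neighbours in this order could not be separated. ACADVL was below HADHA in both venetoclax libraries (50.5 and 45.0 against 59.5 and 53.9 CPM per kb) and above it in both combination libraries (70.0 and 67.6 against 59.7 and 58.6). PPARD lay between 6.97 and 8.29 CPM per kb and RXRA between 4.07 and 8.67, so their ranges overlapped. Among the receptors, PPARA was at 1.61 and 1.12 CPM per kb with venetoclax and 1.24 and 1.26 with CSA, below PPARD in every library. With both drugs it was at 0.191 and 0.116 CPM per kb.

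Counted as a group against venetoclax, 5 of the 7 tested genes other than PPARA were higher in the combination and 2 lower (6 and 1 with scaling by library size alone, which moves the median of all genes to 0.26), with a median log2 fold change of 0.06, or 0.09 without venetoclax replicate 2, against −0.01 for all genes. At an unadjusted p under 0.05 in edgeR, 2 of the 7 were higher (CPT1A and ACADVL) and 0 lower, where 5.33% and 5.48% of all genes were. After adjustment edgeR called 0 of the 7 and 0% of all genes. Without venetoclax replicate 2, 0 of the 7 and 0.379% of all genes passed. Without venetoclax replicate 1, which leaves replicate 2 as the venetoclax library, 3 of the 7 (CPT1A, ACADM and ACADVL) and 26.4% of all genes passed. DESeq2 called 1 of the 7, CPT1A, and 2.55% of all genes. The 2 groups did not overlap for 3 of the 7 (PPARD, CPT1A and ACADVL), against 38.1% of all genes, a share near the background.

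Against CSA, 4 of the 7 were higher and 3 lower, with a median of 0.10 against −0.00 for all genes. At an unadjusted p under 0.05 in edgeR 1 was higher, CPT1A, where 1.95% of all genes were, and 0 were lower, where 1.69% were. Adjusted edgeR calls were 0 of the 7 and 0% of all genes, and without venetoclax replicate 2 they were 0 of the 7 and 0.185%. The groups did not overlap for 6 of the 7, all except CPT2, where 47.2% of all genes did not. For the single drugs, 3 of 8 genes were higher with venetoclax and 5 lower (1 and 7 by library size alone), at a median of −0.07. At an unadjusted p under 0.05 in edgeR 0 were higher and 1 lower, CPT1A, where 2.34% and 2.46% of all genes were. Adjusted edgeR calls were 0 of 8 and 0% with all libraries and again 0 of 8 and 0% without venetoclax replicate 2. Without venetoclax replicate 1 they were 4 of 8 (RXRA, CPT1A, ACADM and ACADVL) and 33.8% of all genes. Of the 8, 3 did not overlap between the single drugs (CPT1A, ACADVL and HADHA), against 40.7% of all genes.

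**Figure D3:**
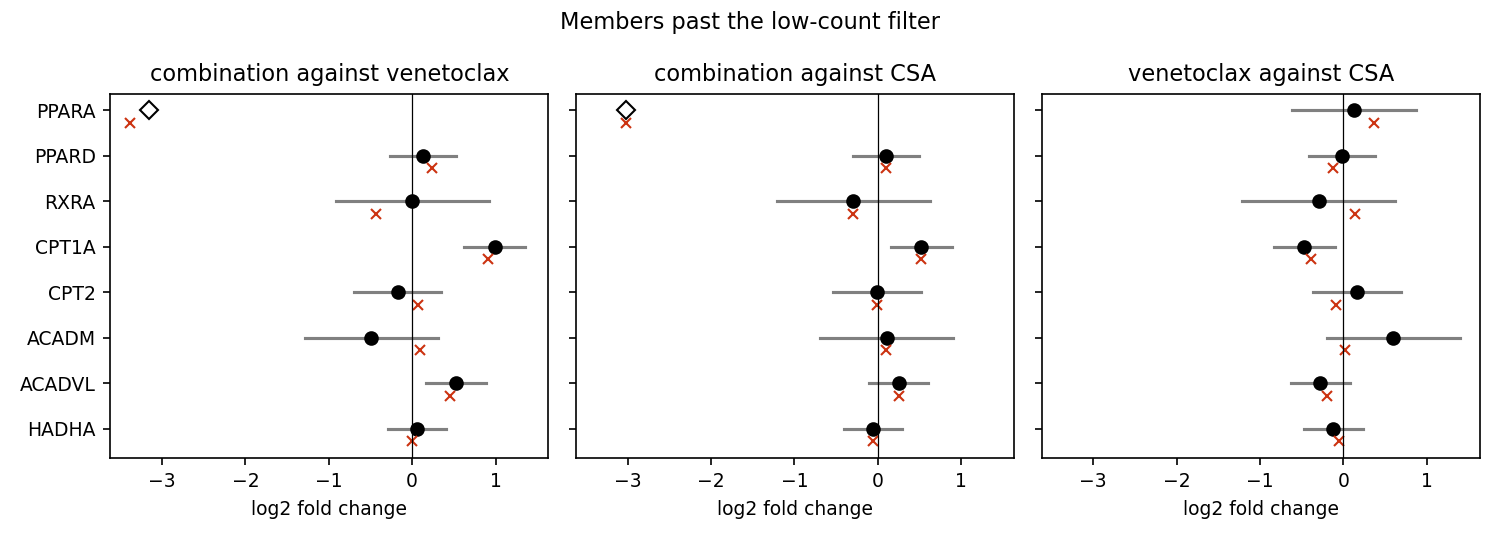
Fitted log2 fold changes of the 8 tested genes in the 3 comparisons, with filled circles for edgeR values, grey lines for their 95% intervals and red crosses for values without venetoclax replicate 2. The CPT1A interval against venetoclax runs from 0.63 to 1.36, and PPARA, at −3.15 and −3.02 against the single drugs, has an open diamond and no interval there, since it is a description.

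The stepwise order of CPT1A and ACADVL, venetoclax below CSA below the combination with no overlap, was noticed after the values were seen. It held for 2 of the 8 tested genes and for 4.64% of all genes, 589 of 12690. The reverse order held for 608 genes. In the 7 pathway lists, which name 113 further genes of which 89 were tested, 4 had the rising order, SLC25A20, PHYH and PLIN2 among them, and 5 the reverse.

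The other mitochondrial beta-oxidation genes numbered 21, of which 19 were tested. Against venetoclax 16 were higher in the combination and 3 lower, with a median of 0.38. Without venetoclax replicate 2, 14 were higher and 5 lower, but the median was 0.03. In edgeR 2 passed an unadjusted p of 0.05, both higher, against the 5.33% of all genes given above. One was SLC25A20, the carrier that moves acylcarnitine across the inner membrane between CPT1A and CPT2, at 10.1 and 6.05 CPM with venetoclax, 14.5 and 13.4 under CSA, and 18.8 and 16.0 under both drugs. Its log2 fold change was 1.10 (SE 0.29), edgeR adjusted p 0.333. Leaving out venetoclax replicate 2 gave 0.79, and the fit gave 1.52, edgeR adjusted p 0.0159, without venetoclax replicate 1, and DESeq2 gave an adjusted p of 0.0404. The other was SLC22A5, the carnitine importer of the cell membrane, at 2.03 and 2.81 CPM with venetoclax, 3.77 and 4.17 under CSA, and 3.87 and 3.67 under both drugs. HADHB, the partner subunit of HADHA, had a log2 fold change of 0.02 against venetoclax. Against CSA 9 were higher and 10 lower (6 and 13 by library size alone), with 0 past an unadjusted p of 0.05. Between the single drugs 14 were lower with venetoclax and 5 higher (19 and 0 by library size alone), and SLC25A20, SLC22A5 and ACAD11 were past an unadjusted p of 0.05 in edgeR, all lower, where 2.46% of all genes were. The median was −0.28 with all libraries and −0.13 without venetoclax replicate 2.

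Genes on either side of beta-oxidation were spread about 0. Of the 5 long-chain acyl-CoA synthetases, which activate fatty acids before CPT1A, 4 were tested. Against venetoclax 1 was higher and 3 lower (4 and 0 by library size alone), with a median of −0.17 that turned to 0.11, 3 higher and 1 lower, without venetoclax replicate 2. Against CSA 2 were higher and 2 lower, and 0 passed an unadjusted p of 0.05 in any comparison. All 16 genes of peroxisomal oxidation were tested. Against venetoclax 11 were higher and 5 lower (15 and 1 by library size alone), median 0.15 and 0.02 without venetoclax replicate 2. Against CSA the peroxisomal genes were 8 higher and 8 lower.

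The list of PPAR-responsive genes outside oxidation had 28 genes, of which 14 were tested. Of the 28, 9 had no count in any library, PDK4, FABP1, FABP4, FGF21 and CYP4A11 among them. Against venetoclax 8 were higher and 6 lower (12 and 2 by library size alone). In edgeR 1 passed an unadjusted p of 0.05 in each direction, where 5.33% of all genes were higher and 5.48% lower. PLIN2, which coats lipid droplets, was at 26.1 and 31.0 CPM with venetoclax, 40.7 and 38.2 under CSA, and 55.6 and 55.9 under both drugs. Its log2 fold change against venetoclax was 0.97 (SE 0.17) with an edgeR adjusted p of 0.188, or 1.10 and 0.0566 without venetoclax replicate 2, and DESeq2 gave an adjusted p of 0.000589. FABP5, a fatty acid binding protein, was at 226 and 307 CPM with venetoclax, 204 and 233 under CSA, and 169.6 and 201 under both drugs, −0.52 (SE 0.21), and −0.28 without venetoclax replicate 2. Against CSA 5 were higher and 9 lower, with PLIN2 higher at 0.50 (SE 0.17) and SLC27A1, a fatty acid transporter, lower at −0.65 (SE 0.26), each past an unadjusted p of 0.05 and with an edgeR adjusted p of 1.00. By the unadjusted rule 1.95% of all genes were higher against CSA and 1.69% lower. Between the single drugs PLIN2 was the one gene of the list past an unadjusted p of 0.05, at −0.47, where 2.46% of all genes were lower.

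**Figure D4:**
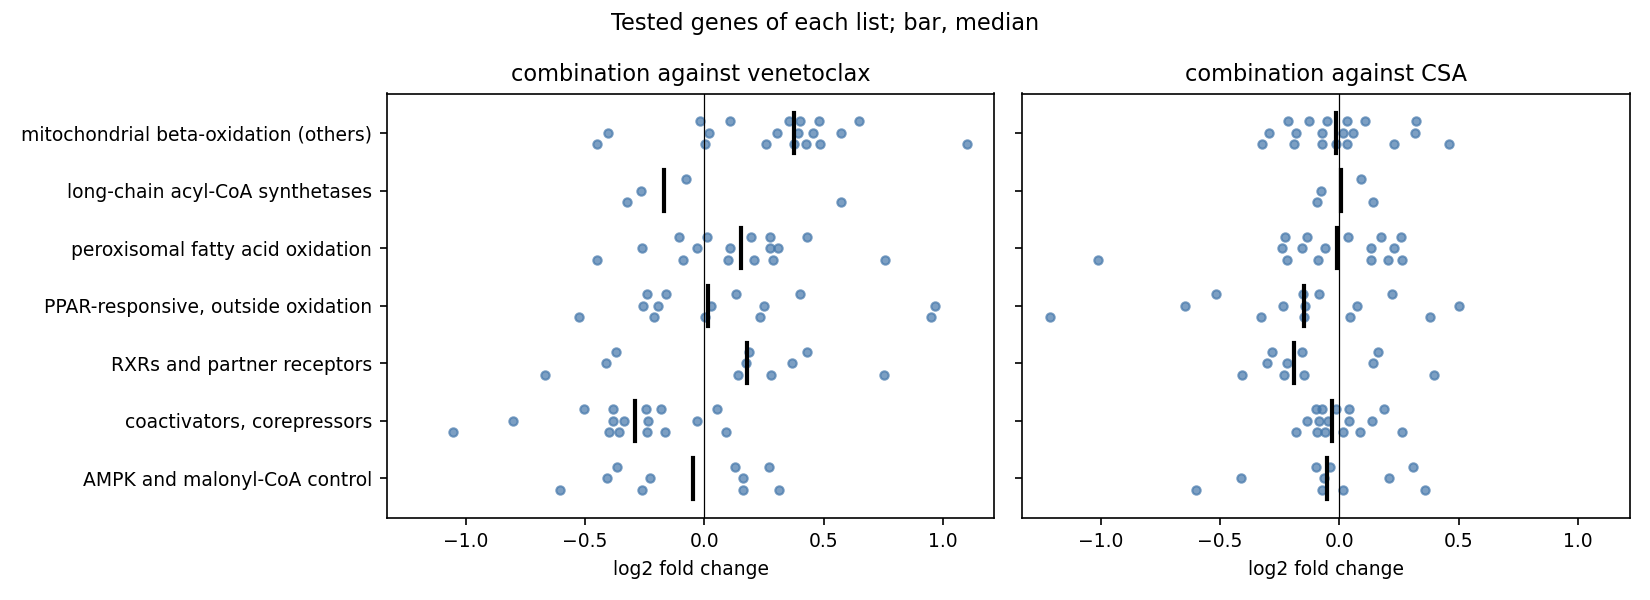
Log2 fold changes of the tested genes in each of the 7 pathway lists, for the combination against venetoclax and against CSA, with a point per gene and a bar at the median. The median of the other mitochondrial beta-oxidation genes is 0.38 against venetoclax with all libraries and 0.03 without venetoclax replicate 2.

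Receptor partners and cofactors were counted in the same way. Of 15 other RXR receptors and RXR partner receptors 10 were tested, 7 higher and 3 lower against venetoclax, 3 and 7 against CSA, and 2 and 8 between the single drugs (0 and 10 by library size alone). The median against venetoclax was 0.18 with all libraries and −0.16, 3 higher and 7 lower, without venetoclax replicate 2. Between the single drugs it was −0.31 and −0.04. THRA, a thyroid hormone receptor, was the 1 gene past an unadjusted p of 0.05 in these comparisons, at −0.41 (SE 0.16) against venetoclax, edgeR adjusted p 0.439. By that unadjusted rule 5.48% of all genes were lower against venetoclax. Of 17 coactivators and corepressors 16 were tested, and 14 were lower than with venetoclax and 2 higher (8 and 8 by library size alone), median −0.29 and −0.17 without venetoclax replicate 2, with 0 past an unadjusted p of 0.05. Against CSA 7 were higher and 9 lower (4 and 12 by library size alone), median −0.03, and between the single drugs 15 were higher with venetoclax and 1 lower (4 and 12 by library size alone), median 0.27 and 0.08 without venetoclax replicate 2. EP300, an acetyltransferase coactivator, showed the part of 1 library: it was at 224 and 444 CPM with venetoclax, and at 175 to 208 CPM in the other 4 libraries. PPARGC1A, the coactivator of oxidative programmes, had a count in 1 library only, CSA replicate 1, at 0.132 CPM. Of 11 genes of AMPK and malonyl-CoA control of CPT1, 10 were tested. They split into 5 higher and 5 lower against venetoclax (7 and 3 by library size alone) and 4 and 6 against CSA. With venetoclax replicate 2 left out they were 7 higher and 3 lower against venetoclax, and the median went from −0.05 to 0.08. PRKAA1, a catalytic subunit of AMPK, had the smallest p of the list there, and its log2 fold change went from −0.60 to 0.16 without that library. ACACB, whose product makes the malonyl-CoA that blocks CPT1, was at 16.5 and 15.2 CPM with venetoclax, 23.6 and 22.6 under CSA, and 18.5 and 16.1 under both drugs. It was the 1 gene of this list past an unadjusted p of 0.05, at −0.54 (SE 0.18) between venetoclax and CSA, edgeR adjusted p 0.633. By that unadjusted rule 2.46% of all genes were lower between the single drugs. In all 7 lists and 3 comparisons edgeR called 0 genes after adjustment, with venetoclax replicate 2 and without it. With venetoclax replicate 1 left out, some genes of these lists did pass, as did a large share of all genes in that fit. It leaves 1 venetoclax library, so those passes are not read as a result about the lists.

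The genes whose levels ran most like PPARA across the 6 libraries were CREB3L2, ZDHHC20, NFAT5, SLC6A8, MDM2 and UBE2Z. Likeness was the root mean square distance between log2(CPM + 0.5) values centred on each gene's mean, over the 11469 other genes with a mean of at least 1 CPM. CREB3L2, a membrane-bound transcription factor of the secretory pathway, was nearest at a distance of 0.39 log2 units (Pearson r 0.98 over 6 libraries, a description without a test). It was at 119.6 and 105 CPM with venetoclax, 122 and 136 under CSA, and 26.3 and 26.6 under both drugs. ZDHHC20, a protein palmitoyltransferase, followed at 0.41 (r 0.96) and NFAT5, the transcription factor of the osmotic stress response, at 0.52 (r 0.92). SLC6A8, the creatine transporter, MDM2, the ubiquitin ligase of p53, and UBE2Z, a ubiquitin-conjugating enzyme, lay at 0.58, 0.59 and 0.63. MDM2 was at 64.2 and 28.7 CPM with venetoclax, 58.8 and 57.9 under CSA, and 12.5 and 14.7 under both drugs. In each of the 6 genes both combination libraries lay below all 4 single-drug libraries, which the measure of likeness selects for.

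**Figure D5:**
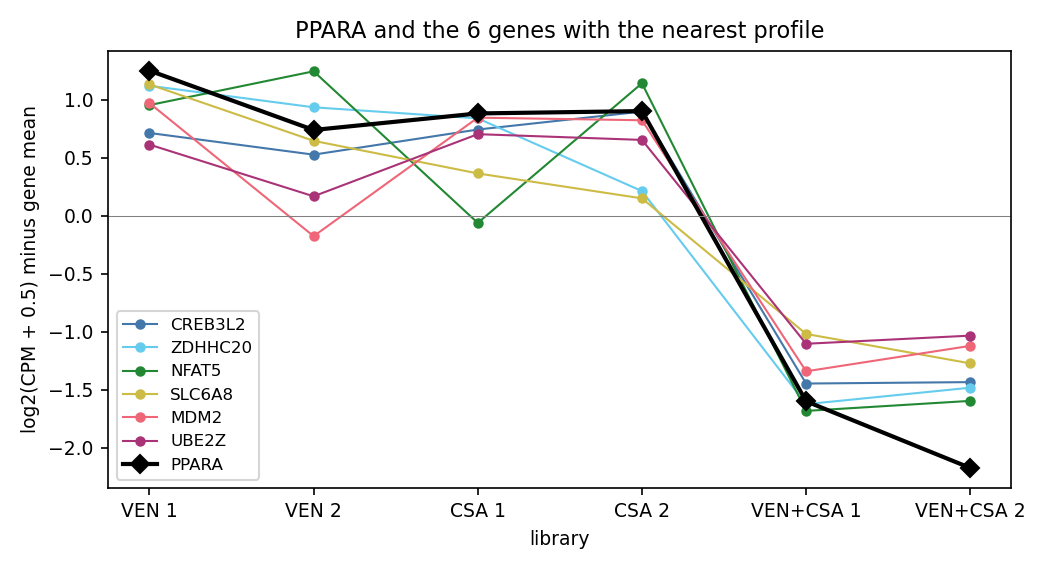
Log2(CPM + 0.5) centred on each gene's mean over the 6 libraries, for PPARA (black) and the 6 genes nearest to it, on an axis of log2 units. All 7 lines are lowest in the 2 combination libraries, and MDM2 and NFAT5 each have 1 single-drug library that lies away from the other lines.

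The other tested genes described here were far from PPARA on the same measure. RXRA, the partner receptor, was nearest at a distance of 1.31 (r 0.25, rank 3036 of 11469), and CPT1A was farthest at 1.72 (r −0.85, rank 11174). ACADVL was at 1.54 (r −0.80) and PPARD at 1.42 (r −0.77). CPT2, HADHA and ACADM lay between 1.35 and 1.36, with r from 0.05 to 0.12 and ranks from 4287 to 4907. The 6 points include 2 libraries per treatment, so each r mostly contrasts the combination with the single drugs. PPARA was picked by its combination values, so these distances, ranks and r are a description without a test.

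The genes around PPARA on chromosome 22 differed less between the groups than PPARA did. CDPF1, on the opposite strand with its nearer end 254 bp beyond the end of PPARA, was at 3.53 and 2.97 CPM with venetoclax, 4.20 and 4.41 under CSA, and 5.13 and 4.29 under both drugs. Its log2 fold change was 0.53 (SE 0.23) against venetoclax and 0.13 against CSA. PKDREJ, 11906 bp beyond PPARA, was at 7.46 and 8.17 CPM with venetoclax, 6.35 and 6.96 under CSA, and 5.88 and 5.85 under both drugs, lowest in the combination with no overlap. Its log2 fold changes were −0.41 and −0.18. TTC38, 24204 bp beyond, was at 0.07 and −0.04, and ATXN10, 305213 bp on the other side, at −0.01 and −0.18. WNT7B and PRR34, which lie between ATXN10 and PPARA, had no count in any library. No annotated gene in the table overlaps PPARA, and the use of strand in counting is stated in none of the sources used here.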

How the data were processed

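Gene counts of 6 libraries, 2 per group, were analysed. The authors deposited whole-number counts per gene, not normalized. The tools in the submitters' processing notes are STAR, RSEM and DESeq2, and the build is hg38, with no versions or roles. Per the labels' protocols RNA was extracted with Trizol and libraries were made with KAPA RNA HyperPrep. The treatment entry of the labels, which names an animal dosing route, was not used. Another 2 columns of the table match no sample here and were not used. Of 20263 genes, 20148 had a symbol and 20224 a GENCODE 29 locus. Of counts from 1 to 20, 64.8% to 66.7% were even, against 49.0% to 51.0% of counts of 100 or more, so a low count may not always be a single read pair.

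Genes that passed filterByExpr (12690) were scaled by TMM and tested in 1 fit of the 6 libraries by group (edgeR 4.0.16 in R 4.3.3, glmQLFit with its robust option, then a two-sided glmQLFTest, 3 residual degrees of freedom), with Benjamini-Hochberg adjustment over all genes tested and a threshold of 0.05. Unadjusted p is given as a weaker rule. The 3 comparisons were the combination against each drug and the drugs against each other. SE and intervals are from this fit. The steps were tested on simulated data. With library sizes as the only scaling, the median over all genes was 0.26, −0.04 and −0.31, and changes are given relative to TMM.

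The members, the lists and the naming rule were chosen with earlier results of these data known. The rule took the 9 members, for each list and comparison the 2 genes of smallest p with a mean of at least 1 CPM, the 6 genes most like PPARA, and the 3 nearest genes on each side of it. Some genes that the rule takes are left out of the text. HADHB and PPARGC1A were named outside it, after their values were seen. Alternatives were DESeq2 1.42.0, limma-voom (limma 3.58.1), other scalings and low-count filters, a fit of 4 libraries, a replicate block, and leaving out each library. Promoter windows are RefSeq's, matched by symbol.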

Additional observations from a re-analysis of the deposited data

How the results depend on the processing

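Of 720 pairs of a gene result and an alternative, 674 kept their direction and, where tested, their side of the threshold. Another 15 newly passed it, 14 reversed and 17 moved by more than the spread. The pairs include PPARA and the genes most like it in comparisons with the combination, which carry no test. Low values in the combination led to the choice of these genes. Their kept direction is therefore no evidence of stability, and the 674 include such pairs. Limits are the 2 libraries per group and the spread within venetoclax. edgeR called 0 genes in each comparison, with 1372, 462 and 609 at an unadjusted p under 0.05 against venetoclax, against CSA and between the single drugs. For the same 3 comparisons DESeq2 called 311, 60 and 63 genes, and edgeR with no filter on low counts 15, 4 and 2. Against CSA limma-voom called 1 gene and a fit of only the 4 libraries 24. Leaving out 1 library gave 0 to 3426, 0 to 24 and 0 to 4385 genes, the highest in the first and last without venetoclax replicate 1. The same gave 0 to 3 members against venetoclax and 0 to 4 between the single drugs, and DESeq2 called 1 against venetoclax. The replicate block called 0 genes and 0 members in each comparison. Replicate differences correlated between groups (0.25, 0.34 and 0.24 over genes), so same-numbered libraries deviated together, but the labels do not say what a number shares, and there are 2 numbers.

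With library size alone CPT2 was at 0.15 against venetoclax and −0.21 between the single drugs, and PPARA at −0.12 between them. Leaving out 1 library, log2 fold changes against venetoclax ran from −0.44 to 0.65 for RXRA, −0.39 to 0.076 for CPT2, −0.90 to 0.090 for ACADM and −0.0044 to 0.13 for HADHA. CPT2 against CSA ran from −0.15 to 0.12. Between the single drugs PPARA ran from −0.16 to 0.36, PPARD from −0.13 to 0.074, RXRA from −0.95 to 0.14 and CPT2 from −0.089 to 0.37. The cause was not tested.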
